A study of Homo sapiens with 8 samples.

Results

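Selenoproteins carry selenocysteine, an amino acid that is inserted at an in-frame UGA, the codon that otherwise ends translation. The 10 genes described here (GPX1, GPX4, TXNRD1, TXNRD2, SELENOF, SELENOT, SELENOK, SELENOW, SELENOM and SELENOS) were chosen by name from this family, with earlier results of these data known but by no threshold on a measured value, and are 10 of the 20165 merged gene regions counted in each library. Their ribosome footprints come from 8 Ribo-seq libraries made from the ovarian cancer cell line OVCAR3. In the siRNA experiment, cells received 30 nM siRNA for 48 h, either a control (siControl) or siRNA directed at OARD1 (siTARG1). OARD1 encodes TARG1, a hydrolase that takes ADP-ribose off proteins. The study lists 2 siRNAs for TARG1, and which of them these libraries received is not stated. In the RACK1 experiment, stable lentiviral lines received doxycycline at 1 µg/ml for 48 h, which induced a shRNA against the cells' own RACK1, and expressed HA-tagged RACK1, a component of the 40S ribosomal subunit. This RACK1 was wild type in RACK1-WT cells, and in RACK1-Mut cells its mono-ADP-ribosylation sites were mutated. Each of the 4 groups had 2 libraries, which the study's methods describe as independent biological samples. The p-values weigh the difference between groups against the spread between these libraries, which is estimated with the help of other genes.

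In a selenoprotein mRNA, a stem-loop in the 3′ UTR (the SECIS element) is bound by SECISBP2, and the specialised elongation factor EEFSEC delivers the selenocysteine tRNA to the UGA. Where delivery fails, the ribosome can terminate at the UGA, and such an mRNA can be degraded by nonsense-mediated decay. Selenocysteine usually sits in the active site of an oxidoreductase, as in glutathione peroxidases and thioredoxin reductases. Several other members lie in the endoplasmic reticulum (ER), where they act in protein folding and in the removal of misfolded proteins.

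The coding sequences around the recoded UGA are shown because the place of this codon decides which footprints come from ribosomes that had passed it. They were read from the GENCODE transcripts of the counted regions on GRCh37 and are printed 5′ to 3′ on the coding strand, with the UGA in capitals as TGA. Sequences that are shorter end with the stop codon of the gene.
GPX4: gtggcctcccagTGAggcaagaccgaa
TXNRD1: caggctggctgcTGAggttaa
TXNRD2: gtgacaggctgcTGAgggtaa
SELENOF: gaagtttgtggaTGAaaattgggaagg
SELENOM: acctgcgggggaTGAcagctgaaccgc
SELENOK: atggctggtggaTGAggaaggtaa
SELENOW: tattgtggcgctTGAggctacaagtcc

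These codons are at chr19:1105402-1105404 (plus strand) in GPX4, at chr12:104742191-104742193 (plus) in TXNRD1, at chr22:19864634-19864636 (minus) in TXNRD2 and at chr1:87346373-87346375 (minus) in SELENOF. The others shown are at chr22:31501937-31501939 (minus) in SELENOM, at chr3:53919858-53919860 (minus) in SELENOK and at chr19:48283989-48283991 (plus) in SELENOW. In both thioredoxin reductases the UGA is the last codon but 1, in codon 498 of 499 in TXNRD1 and codon 523 of 524 in TXNRD2. SELENOS (codon 188 of 189) and SELENOK (codon 92 of 94) also have it at the very end. In the other 6 genes it lies further inside, in codon 49 of 203 in GPX1, 73 of 197 in GPX4, 96 of 165 in SELENOF, 49 of 195 in SELENOT, 13 of 87 in SELENOW and 48 of 145 in SELENOM. The base after the UGA was G in 8 of the 10 genes, A in SELENOF and C in SELENOM. The deposited counts give 1 number per coding sequence. The counted coding length equalled the annotated one, stop codon included, in every member but GPX1 and TXNRD2, so codons on both sides of the UGA were counted together, and footprints before it cannot be told apart from those after it. Where the UGA comes last, 96.8% to 99.6% of the coding sequence lies before it, against 13.8% in SELENOW.

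**Figure D1:**
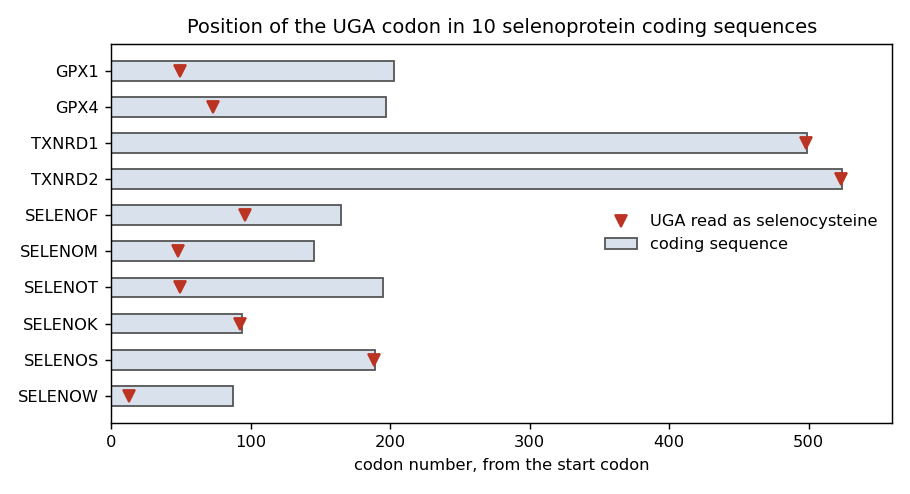
Codon number on the horizontal axis for the 10 selenoproteins; the bar is the coding sequence and the triangle is the UGA read as selenocysteine. In TXNRD1, TXNRD2, SELENOK and SELENOS the triangle is at the end of the bar, and in SELENOW it is in codon 13 of 87.

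The libraries held 3100947 to 6604190 footprints on coding sequences, with fewer in the RACK1-Mut libraries (4174707 and 3798750) than in the RACK1-WT libraries (6604190 and 6174010). The targeted gene was low in the libraries labelled siTARG1, with 5.83 and 6.75 normalized footprints of OARD1 against 121 and 69.1 in siControl. RACK1, which these counts cannot split into re-expressed and own RACK1, was lower in RACK1-Mut than in RACK1-WT, with a log2 fold change of -0.42. The 8 markers fixed for an ovarian carcinoma line were present in all 8 libraries, although KRT8 (-1.03) and KRT18 (-1.24) fell and KRT7 (0.47) rose on the log2 scale in siTARG1. Those of immune, endothelial and liver cells summed to at most 0.486 of 1000000 coding footprints, and CD3E and CDH5 were at 0 in all libraries.

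Of the 10 selenoproteins, 9 could be measured. GPX1, the abundant cytosolic glutathione peroxidase, had 0 footprints in each of the 8 libraries, but its counted region held only 3 of its 612 coding nucleotides and 249 exon nucleotides in all. Its translation was therefore not measured. Reads could be given to many sites, and GENCODE names pseudogenes of SELENOT, SELENOK and SELENOW, so the counts of these 3 are less certain. TXNRD1 shares its strand with the overlapping genes EID3 and RPL18AP3.

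The 9 measured genes together took 629.1 to 702 of 1000000 coding footprints in the siRNA experiment and 930.6 to 967.8 in the RACK1 experiment. Levels between genes are given as footprints per kilobase of counted coding sequence and per 1000000 coding footprints of the library, with the SD over 2 libraries. GPX4, the peroxidase that reduces lipid hydroperoxides in membranes, had the highest level in every group, at 315 ± 6.45 in siControl, 392 ± 12.8 in siTARG1, 446 ± 32.0 in RACK1-WT and 464 ± 34.2 in RACK1-Mut. The next place differed between the experiments. SELENOF followed in siControl (254 ± 49.0) and siTARG1 (192 ± 21.4), with TXNRD1 behind it at 157 ± 5.84 and 113 ± 3.04. In the RACK1 experiment TXNRD1 came second, at 274 ± 12.8 in RACK1-WT and 276 ± 10.6 in RACK1-Mut, ahead of SELENOF at 230 ± 18.1 and 240 ± 29.6. The libraries of these neighbours did not overlap within any of the 4 groups.

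SELENOT, SELENOK and SELENOS formed a middle range, from 35.1 to 126 over all libraries. SELENOT and SELENOK overlapped in siControl, RACK1-WT and RACK1-Mut but not in siTARG1, where SELENOK (102 ± 8.71) stood above SELENOT (71.7 ± 9.56). SELENOM, TXNRD2 and SELENOW were at the bottom, from 7.23 to 44.7 over all libraries, and SELENOM overlapped SELENOS in RACK1-WT. Their order changed with the group: in siControl the libraries of the 3 overlapped, whereas in siTARG1 SELENOM (32.6 ± 3.15), TXNRD2 (18.8 ± 0.0805) and SELENOW (9.46 ± 3.17) were apart. The experiments differ in cells and in treatment, so levels across them were not tested.

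**Figure D2:**
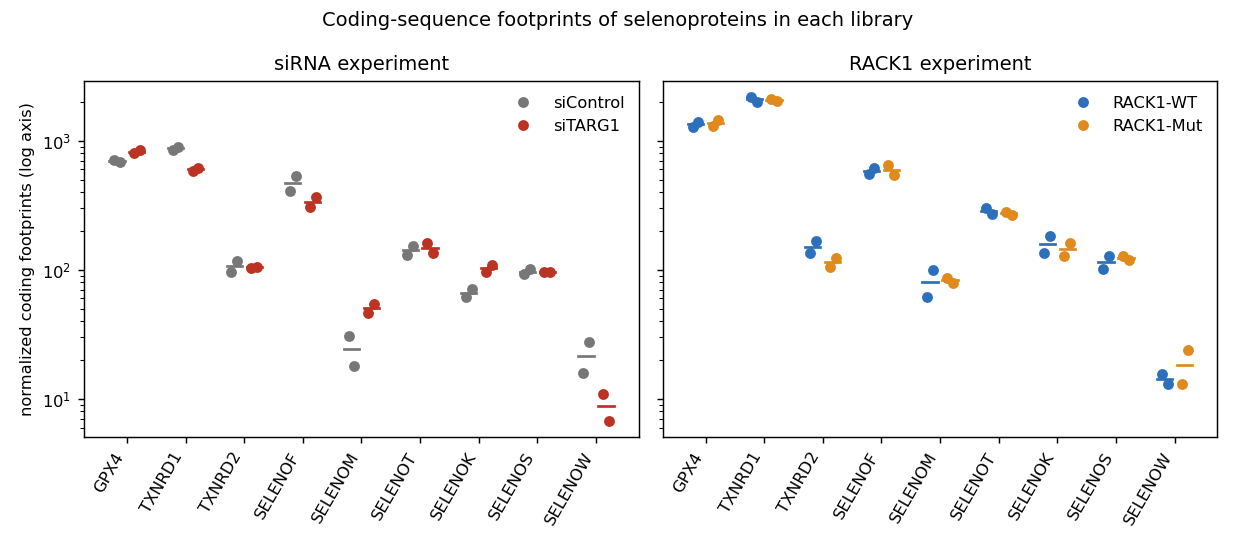
Normalized coding-sequence footprints (log axis) of the 9 measured selenoproteins, with each library as a point and the mean of 2 libraries as a line; the scaling is separate for each experiment and not per length. TXNRD1, SELENOF and SELENOW have both siTARG1 libraries below both siControl libraries, and GPX4, SELENOK and SELENOM have them above. The groups were apart in 62.6% of all genes tested in the siRNA experiment. In the RACK1 experiment the groups overlap in every gene but TXNRD2, against 37.6% of all genes tested that were apart.

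After TARG1 depletion, 2 of the 9 selenoproteins fell and none rose by DESeq2 at an adjusted p under 0.05. The genes that fell were TXNRD1, the cytosolic thioredoxin reductase, to 68.6% of siControl, and SELENOF, an ER protein that partners the glycoprotein folding sensor UGGT1, to 71.9%. Over all genes 16.4% were called in this comparison (1974 of 12056), 7.18% as higher and 9.19% as lower, so 2 of 9 is close to the background. The median log2 fold change of the 9 genes was -0.0063, beside 0.0031 over all genes tested, with 4 positive and 5 negative values. Libraries of the 2 groups did not overlap in 6 of the 9, against 62.6% of all genes tested. At an unadjusted p under 0.05 there were 5 of 9, against 26.0% of all genes.

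The values below are coding footprints normalized by DESeq2 size factors. Adjusted p-values are from the DESeq2 Wald test with Benjamini-Hochberg adjustment over the genes that pass DESeq2's default independent filtering. Genes with low counts can be left without an adjusted p, and such genes count as tested and not called. GPX4 had 702 and 682 normalized footprints in siControl and 797 and 842 in siTARG1. Both siTARG1 values were above both controls, but the log2 fold change of 0.24 (SE 0.113) did not pass the test (adjusted p = 0.131). Its 95% interval ran from 0.021 to 0.46. With edgeR's quasi-likelihood test the same change, 0.24, had an adjusted p of 0.0312.

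TXNRD1 returns oxidised thioredoxin to its active form with NADPH and needs its selenocysteine, the last residue but 1, for this. It had 850 and 895 normalized footprints in siControl and 584 and 613 in siTARG1. All control values were higher, a difference of -0.54 on the log2 scale (SE 0.114, adjusted p = 4.12e-05). Without the first siTARG1 library the change was -0.51 with an adjusted p of 0.0674. It kept an adjusted p under 0.05 when any other library was left out. TXNRD2, its mitochondrial counterpart, was not called, with 96.7 and 117 footprints in siControl and 104 and 106 in siTARG1. These values overlapped, and the log2 fold change was -0.020, with an interval from -0.56 to 0.52. The difference between the changes of the 2 reductases was not tested.

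Among the ER members, SELENOF had 404 and 532 normalized footprints in siControl and 308 and 364 in siTARG1. The groups did not overlap and differed by -0.48 on the log2 scale (SE 0.168, adjusted p = 0.0305). This call depended on all 4 libraries. The adjusted p became 0.0605 without the first siControl library and 0.651 without the second, and 0.559 and 0.14 without the first and the second siTARG1 library. The change stayed between -0.67 and -0.27.

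SELENOM, a thioredoxin-like protein of the ER lumen, had the highest positive value of the 9 genes. It had 30.8 and 17.9 normalized footprints in siControl and 46.6 and 54.0 in siTARG1, from 154 counts in all. The log2 fold change of 1.02 (SE 0.474) did not pass the test (adjusted p = 0.128), and its interval ran from 0.096 to 1.95. SELENOK, a small membrane protein of the ER that takes part in the degradation of misfolded proteins and in protein palmitoylation, had 61.5 and 70.3 in siControl and 95.7 and 109 in siTARG1. Its log2 fold change of 0.64 (SE 0.307) had an adjusted p of 0.149. Both genes had siTARG1 libraries above the controls, and edgeR's quasi-likelihood test called both, with adjusted p-values of 0.0192 for SELENOM and 0.0212 for SELENOK.

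SELENOT, an ER membrane protein with a thioredoxin-like fold, had 131 and 153 footprints in siControl and 162 and 135 in siTARG1, a log2 fold change of 0.073 with an interval from -0.40 to 0.54. SELENOS, which anchors the ATPase VCP at the ER membrane, had 92.3 and 101 in siControl and 95.7 and 96.7 in siTARG1. In both genes the groups overlapped. SELENOW, a small cytosolic protein, rested on the fewest counts, with 18 and 23 raw footprints in siControl and 13 and 6 in siTARG1. Its normalized values of 15.8 and 27.4 against 10.8 and 6.75 did not overlap, but the interval of the log2 fold change of -1.27 reached from -2.72 to 0.18 (adjusted p = 0.259).

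Genes with either place of the UGA had log2 fold changes of both signs. By DESeq2 only the falls of TXNRD1 and SELENOF were called, and no positive value was. The 4 genes with the UGA at the end had log2 fold changes of -0.54 (TXNRD1), -0.020 (TXNRD2), -0.0063 (SELENOS) and 0.64 (SELENOK). Those of the 5 measured genes with the UGA further inside lay between -1.27 (SELENOW) and 1.02 (SELENOM), so the second range held all of the first. Its ends rest on the members with the fewest counts, 60 for SELENOW and 154 for SELENOM, and neither was called. Without them the range was -0.48 (SELENOF) to 0.24 (GPX4), and TXNRD1 and SELENOK lay outside it. This is a description of 9 genes, and no test was made of it. RNA-seq libraries were not analysed here, and less mRNA cannot be told apart from fewer ribosomes per mRNA.

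**Figure D3:**
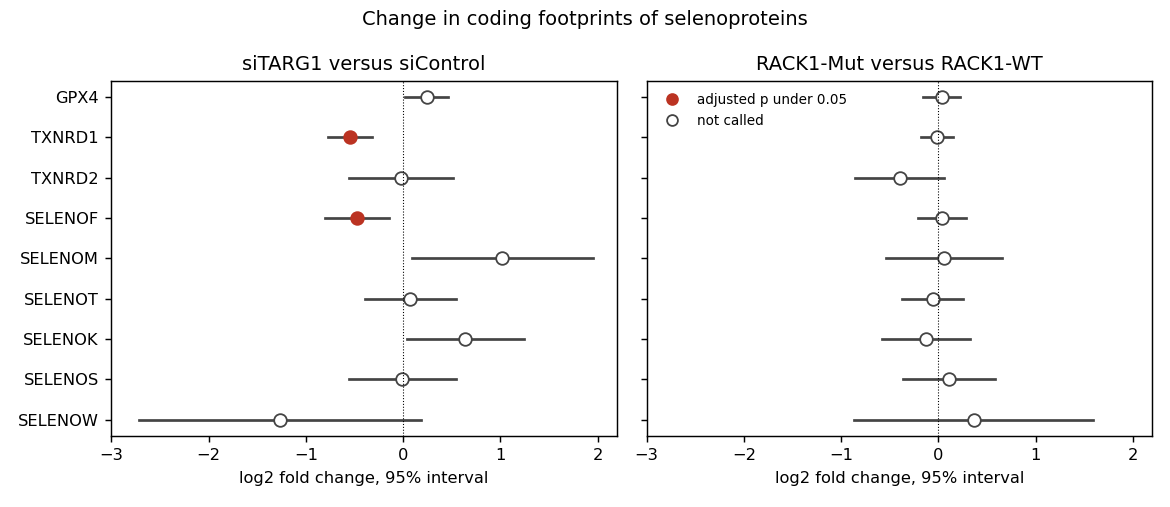
Log2 fold change of coding footprints with its 95% Wald interval, for siTARG1 over siControl (left) and RACK1-Mut over RACK1-WT (right); filled points have an adjusted p under 0.05 by DESeq2. TXNRD1 (-0.54) and SELENOF (-0.48) are the filled points on the left, and there are none on the right.

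No selenoprotein was called between RACK1-Mut and RACK1-WT cells by DESeq2 or by edgeR's quasi-likelihood test, and none had an unadjusted p under 0.05. Over all genes 0.0799% were called (10 of 12520), and 1.64% had an unadjusted p under 0.05. The median log2 fold change of the 9 genes was 0.034, beside -0.0017 over all genes tested. The libraries of the groups did not overlap in 1 of the 9, TXNRD2, against 37.6% of all genes tested.

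TXNRD2 had 135 and 167 normalized footprints in RACK1-WT and 105 and 124 in RACK1-Mut. Both mutant libraries were lower, but the log2 fold change of -0.40 (SE 0.234) had an unadjusted p of 0.0895 and an adjusted p of 1. The value moved between -0.54, without the first RACK1-WT library, and -0.23, without the second. The genes with most counts had the narrowest intervals. TXNRD1, with 2169 and 2007 normalized footprints in RACK1-WT and 2117 and 2017 in RACK1-Mut, had a log2 fold change of -0.014 with an interval from -0.18 to 0.15. GPX4, with 1283 and 1404 against 1300 and 1451, had 0.034 with an interval from -0.15 to 0.22. In both genes the values of the groups interleaved, and a change of the size seen for TXNRD1 after TARG1 depletion lies outside both intervals.

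SELENOF changed by 0.036 on the log2 scale (interval from -0.21 to 0.29), and SELENOT by -0.061 (from -0.38 to 0.25). SELENOK (-0.13), SELENOS (0.11) and SELENOM (0.059) had intervals that reached at least 0.3 on both sides of 0. SELENOW had the widest, from -0.87 to 1.59, on 65 counts in the 4 libraries. For these genes the comparison cannot tell a small change from none. The contrasts of the experiments are of different treatments in different cells, and the difference between their effects was not tested.

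Footprints in the untranslated regions were few, and TXNRD1 was the only member with many of them. It had 8.35% to 11.1% of its footprints (5′ UTR, coding sequence and 3′ UTR together) in the 5′ UTR in the 8 libraries. Its share was 9.62% and 8.81% in siControl and 9.87% and 8.70% in siTARG1, and 10.7% and 10.4% in RACK1-WT and 11.1% and 8.35% in RACK1-Mut. The groups overlapped in both experiments. Exact Clopper-Pearson 95% intervals of these shares, which cover counting error only, reached from 6.56% to 12.6%. Among the 3528 genes with enough footprints in the siRNA experiment the median share in siControl was 2.75%, and 86.8% of them were below TXNRD1. The 5′ UTR counts of TXNRD1 moved by -0.53 on the log2 scale after TARG1 depletion (SE 0.306, adjusted p = 0.58), close to the -0.54 of its coding sequence, and by -0.13 (SE 0.257, adjusted p = 0.999) in RACK1-Mut cells. Transcripts of TXNRD1 differ at the 5′ end, and the counted 5′ UTR of 875 nucleotides is merged over them.

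**Figure D4:**
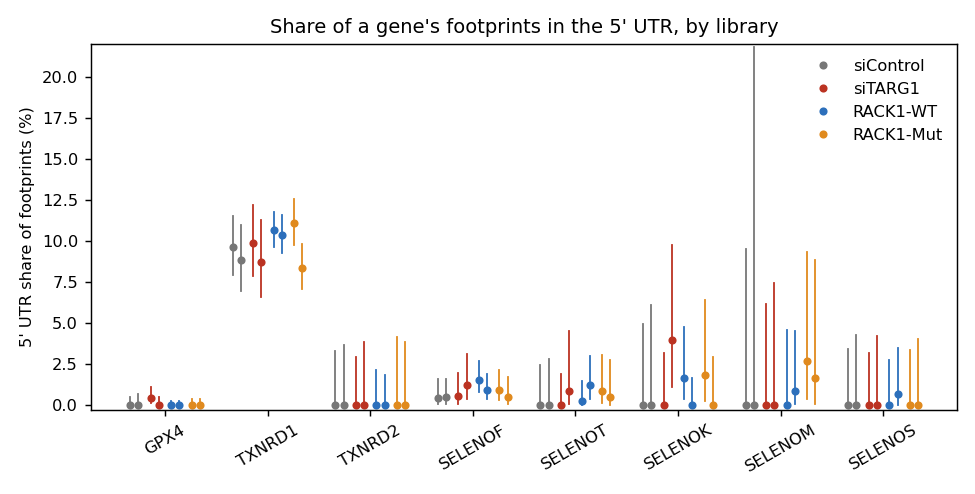
Share of a gene's footprints that lie in the 5′ UTR, in percent, for each library (points) with exact 95% binomial intervals (lines), coloured by group; GPX1 and SELENOW are left out for lack of counts. TXNRD1 stands at 8.35% to 11.1% in all 8 libraries, and the points of the other genes reach at most 3.92%.

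Of the other members, SELENOF was the only one with enough 5′ UTR counts for the test, with 10 in the siRNA experiment and 25 in the RACK1 experiment, and it was not called. Pooled over the 8 libraries, the 5′ UTR held 0.857% of the footprints of SELENOF, 0.911% of SELENOK, 0.51% of SELENOT, 0.046% of GPX4 and 10.96% of SELENOW, and TXNRD2, with 987 coding footprints, had 0 there. The share of SELENOW was as high as that of TXNRD1 but rested on 16 footprints. It was 17.4% and 14.8% in siControl and 7.14% and 0% in siTARG1, from at most 4 footprints a library, and the exact intervals of the 4 libraries overlapped. In RACK1-WT it was 4.76% and 23.8%, and in RACK1-Mut 0% and 5.26%. The share of SELENOF in the 5′ UTR was 0.429% and 0.445% in siControl and 0.532% and 1.22% in siTARG1, values that did not overlap but rest on 2 to 4 footprints each. Such separation was seen in 34.8% of the genes compared. In the RACK1 experiment the share of SELENOF was 1.5% and 0.92% in RACK1-WT and 0.911% and 0.474% in RACK1-Mut, again without overlap, as in 29.3% of the genes compared. Over all genes 0.458% were called for 5′ UTR footprints in the siRNA experiment (25 of 5455), and 0.0% in the RACK1 experiment. At an unadjusted p under 0.05 neither member was counted in either experiment, against 5.99% and 0.256% of all genes.

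The 3′ UTR holds the SECIS element and would also receive ribosomes that pass the normal stop codon. It held 0.101% to 1.42% of the footprints of the measured genes when pooled over the libraries, apart from SELENOW with 3.42% from 5 counts. GPX4 had 5 and 4 footprints there in siControl and 8 and 9 in siTARG1, a share of 0.622% and 0.694% against 0.826% and 1.19%. The groups did not overlap, as in 33.6% of the genes compared, and the log2 fold change of the counts was 0.87 (SE 1.08, adjusted p = 1). In the RACK1 experiment the share of GPX4 was 0.24% and 0.406% against 0.274% and 0.272%. SELENOW had 4 of its 10 footprints in the 3′ UTR in the second siTARG1 library, with an exact interval from 12.2% to 73.8%, and none of 14 in the first. Only GPX4 had enough 3′ UTR counts for the test in the siRNA experiment. In the RACK1 experiment these were GPX4, TXNRD1, SELENOF and SELENOK, and the other members were not tested. None of the tested members was called for 3′ UTR footprints. Over all tested genes the called share was 0.0557% in the siRNA experiment (1 of 1795) and 0.0523% in the RACK1 experiment (1 of 1912). By DESeq2, none of the tested members had an unadjusted p under 0.05, against 1.95% and 0.366% of all tested genes. The quasi-likelihood test of edgeR called none of them. The 3′ UTR shares of GPX4, TXNRD1, SELENOF and SELENOK overlapped between RACK1-WT and RACK1-Mut, where 32.5% of the genes compared did not.

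The genes that place selenocysteine at the UGA were taken from a list of 17, of which 16 had a region and all 16 were tested. After TARG1 depletion 2 fell and 2 rose, 25% of those tested beside 16.4% of all genes, and the median log2 fold change of the list was -0.20, beside 0.0031 over all genes. SECISBP2, the SECIS-binding protein, had 84.4 and 82.3 normalized footprints in siControl and 25.0 and 46.1 in siTARG1. Both siTARG1 values were far below the controls, at -1.25 on the log2 scale (SE 0.391, adjusted p = 0.0116). SECISBP2L, its paralog, went from 207 and 167 to 92.4 and 96.7, a difference of -0.99 (SE 0.246, adjusted p = 0.000819).

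The genes of this list that rose encode RNA-binding proteins. NCL (nucleolin) rose by 0.26 (SE 0.0734, adjusted p = 0.00418) and CELF1 by 0.45 (SE 0.105, adjusted p = 0.000241) on the log2 scale. EEFSEC, the elongation factor, had 208 and 184 in siControl and 186 and 225 in siTARG1, which overlapped, with a log2 fold change of 0.059. SEPHS2, the selenophosphate synthetase that is itself a selenoprotein, had a value of -0.73 (adjusted p = 0.0732), and SEPSECS and PSTK, which make selenocysteine on its tRNA, had -0.88 each (adjusted p = 0.244 and 0.314). In RACK1-Mut cells none of the 16 was called by either tool and none had an unadjusted p under 0.05, with SECISBP2 at -0.13 and EEFSEC at 0.24.

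**Figure D5:**
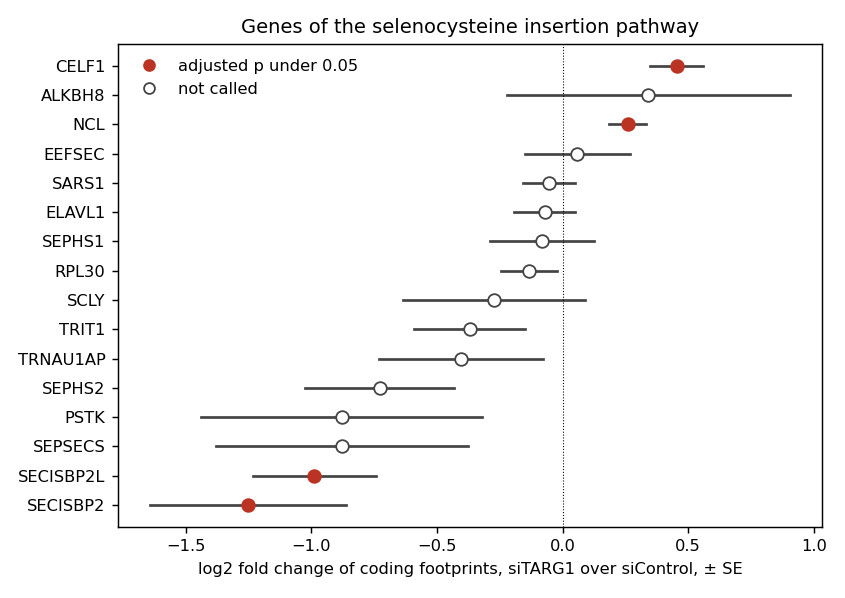
Log2 fold change (horizontal axis) of coding footprints in siTARG1 over siControl for the 16 tested genes of the selenocysteine insertion pathway, with the standard error as a line; filled points have an adjusted p under 0.05. SECISBP2 (-1.25) and SECISBP2L (-0.99) are at the low end, and NCL (0.26) and CELF1 (0.45) are the filled points on the right.

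Of 15 other selenoproteins, 10 were tested, and 2 fell after TARG1 depletion, 20% beside 16.4% of all genes. With edgeR's quasi-likelihood test 4 were called, and over all genes this test called 3470 of 12056. The members of this list that it added were SEPHS2 (-0.73, adjusted p = 0.00614) and, with a positive change, GPX3 (0.77, adjusted p = 0.0122). MSRB1, which reduces methionine sulfoxide, had 144 and 145 normalized footprints in siControl and 98.2 and 60.7 in siTARG1 (log2 fold change -0.85, SE 0.288, adjusted p = 0.0222). SELENOI, an enzyme of phosphatidylethanolamine synthesis, had 287 and 294 against 209 and 198 (-0.51, SE 0.181, adjusted p = 0.0303). In both genes all control values were higher. GPX2, GPX6, DIO1 and DIO3 had 0 counts in the 4 libraries of the siRNA experiment, and DIO2 had 1. Of 7 listed paralogs without selenocysteine, 4 were tested. MSRB3 fell, from 126 and 109 to 38.3 and 21.4 (-1.95, SE 0.363, adjusted p = 2.42e-06), and the other 3 were not called. The list median was 0.069 for the other selenoproteins and -0.21 for the paralogs.

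TXNRD1 works with thioredoxin and NADPH and is a target of the transcription factor NRF2 (NFE2L2). In a list of 20 tested genes of the thioredoxin and glutathione systems and NRF2 targets, 6 fell and 2 rose, which is 40% of the list beside 16.4% of all genes, and its median log2 fold change was -0.23. Those that fell included TXN (-0.33, adjusted p = 0.00198), the substrate of TXNRD1, and NQO1 (-0.42, adjusted p = 0.000465), a quinone reductase. ME1 (-1.54, adjusted p = 1.71e-33), a source of NADPH, and NFE2L2 itself (-0.37, adjusted p = 0.000361) also fell. The 2 that rose were TXNIP, the thioredoxin-binding protein (0.71, adjusted p = 8.62e-13), and GSR, glutathione reductase, which has no selenocysteine (0.66, adjusted p = 2.55e-06). Genes of the list that were not called included GCLM (-0.16), SLC7A11 (-0.20), SRXN1 (-0.33), HMOX1 (-0.40), FTL (0.18) and OSGIN1 (0.13). GGT1 (-3.63, from 25 counts) had no adjusted p by DESeq2. None of the 20 was called in RACK1-Mut cells by DESeq2 or edgeR, and none had an unadjusted p under 0.05.

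For the ER members, a list of 20 partners and genes of ER-associated degradation had 3 that rose and 1 that fell, 20% of those tested beside 16.4% of all genes, with a median log2 fold change of 0.15. UGGT1, the folding sensor that binds SELENOF, rose by 0.44 (SE 0.0936, adjusted p = 5.54e-05), whereas SELENOF fell. The ubiquitin ligase SYVN1 rose by 0.36 (adjusted p = 0.0346) and the ubiquitin-conjugating enzyme UBE2J1 by 1.05 (adjusted p = 0.0196). EDEM3, which trims mannose from misfolded glycoproteins, fell by 1.62 on the log2 scale (adjusted p = 4.46e-09). In the RACK1 experiment none of these was called by either tool or had an unadjusted p under 0.05.

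Certain 7-letter strings in annotated 3′ UTRs were looked up because earlier results of these data had shown them to be frequent in genes that changed after TARG1 depletion, so the shares over all genes below are a description. TGAACAT or GAACATA was in the 3′ UTR of 41.7% of genes called lower, 18.3% of those called higher and 23.0% of all tested genes with an annotated 3′ UTR, counted on the sense strand with any transcript of a gene. TGAATAT or GAATATA was in 52.1% of genes called higher, 30.2% of those called lower and 29.8% of all. Of the 10 selenoproteins, TXNRD2 and SELENOT had the first pair, and SELENOT and SELENOS the second. TXNRD1 and SELENOF, the members that fell, had neither, and neither did GPX1, GPX4, SELENOK, SELENOM and SELENOW. Of the list genes named above as fallen, SECISBP2, SECISBP2L, SELENOI, MSRB3, NFE2L2 and EDEM3 had the first pair, SELENOI and NFE2L2 also the second. MSRB1, TXN, NQO1 and ME1 had neither. Of those named as risen, UBE2J1 had the first pair, CELF1 and UGGT1 the second, and NCL, TXNIP, GSR and SYVN1 neither. The strings are a description of these windows, and their part in the results was not tested.

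The genes whose normalized footprints followed TXNRD1 most closely over the 8 libraries, after the mean of each experiment was taken off, were AP3M1 (Pearson r = 0.997), ANXA3 (0.996) and G3BP2 (0.995), out of 6718 genes compared. Those closest to GPX4 were ADORA1 (0.966), FNDC3A (0.961) and B3GAT3 (0.961). The 8 libraries share their treatments in pairs, so these values largely repeat the contrast between siTARG1 and siControl and are given as a description.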

How the data were processed

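The deposited counts are whole numbers of footprints that the authors counted with Plastid, per the file headers, over exons, 5′ UTR, coding sequence and 3′ UTR of 20165 merged regions (hg19, GENCODE release 24), from reads of 26 to 36 nt placed 14 nt from the 5′ end. In the methods the offset is counted from the 3′ end, and which was used was not resolved. Whether reads with the same molecular identifier were collapsed is not stated. The submitters' processing notes name Bowtie 1.1.2 and TopHat2 2.1.1. The deposited lengths gave levels per kilobase, and RPKM computed by the authors was not used.

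Groups and replicate numbers came from sample titles. Symbols came from GENCODE release 44 lifted to GRCh37 (19612 regions, 97.3%). DESeq2 1.42.0 in R 4.3.3 was fitted to the 4 libraries of a comparison, for genes with at least 10 counts summed over them, with calls at an adjusted p under 0.05. UTR counts used the coding size factors. UTR shares are compared for genes with at least 500 footprints over the 4 libraries and at least 10 in the UTR. Of 2 against 2 libraries no exact permutation p can be under 0.33. The fits were run on simulated counts with changes larger than those of TXNRD1 and SELENOF. Changes of the size of these 2 were not simulated.

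Members and gene lists were chosen with earlier results of these data known, as were the 7-letter strings. Of each list, called genes are named, at most the 6 with the smallest adjusted p, and uncalled genes named here were chosen after their values were seen. For TXNRD1 and GPX4, the members with most footprints, the 3 genes closest by Pearson r of log2(normalized count + 0.5) are named, among genes with a mean of at least 100. Alternatives were edgeR 4.0.16 (quasi-likelihood, TMM), TMM inside DESeq2, other count filters, exon counts, a replicate term, all 8 libraries in 1 fit, and leaving out each library. GCLC, GSS, EIF4A3 and PECAM1 matched no region, and the regions of SELENON and SCLY are merged with other genes.

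Replicate libraries were not copies: the chi-square per gene of scaled counts was 1.67 to 3.27 within groups, where sampling noise alone gives a value near 1.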

Additional observations from a re-analysis of the deposited data

How the results depend on the processing

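The count of selenoproteins called after TARG1 depletion, 2 of 9, became 5 with edgeR's quasi-likelihood test (TXNRD1, SELENOF, GPX4, SELENOK and SELENOM) and 0 to 1 when 1 library was left out, where the lone library of a group is assumed to vary like the others. With the replicate block it was 1, since SELENOF had an adjusted p of 0.089. Whether the replicate numbers pair the libraries is not stated. The correlation of replicate deviations was 0.0306 in the siRNA and 0.0829 in the RACK1 experiment, which cannot exclude pairing. In siControl and siTARG1 the first libraries held 4207939 and 4207861 coding footprints, and the second 3100947 and 3145173. Over all genes the count of 1974 became 3470 with edgeR, 1125 with the replicate block and 564 to 744 with 1 library left out. In the RACK1 comparison the count of 10 became 30, 6 and 1 to 3. A fit of all 8 libraries also called SELENOM (1.02, adjusted p = 0.0374). TMM scaling, other count filters and exon counts left the count of called members at 2 and at 0 in the 2 comparisons.

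Directions changed only for members that were not called, and only when 1 library was left out. In the siRNA experiment the log2 fold change then ranged from -0.16 to 0.11 for TXNRD2, -0.067 to 0.20 for SELENOT and -0.083 to 0.057 for SELENOS. In the RACK1 experiment it ranged from -0.046 to 0.11 for GPX4, -0.069 to 0.044 for TXNRD1, -0.095 to 0.15 for SELENOF, -0.13 to 0.0083 for SELENOT, -0.33 to 0.11 for SELENOK, -0.12 to 0.73 for SELENOW, -0.25 to 0.45 for SELENOM and -0.050 to 0.28 for SELENOS. The cause was not tested. Depth limits SELENOW and SELENOM and all UTR counts but those of the TXNRD1 5′ UTR.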
